A study of Mus musculus with 6 samples.

Results

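Ncl, Npm1, Nop56, Nop58 and Fbl encode the core proteins of the nucleolus, and here they are described in maps of Tex10 binding and of H3K4me3 in primordial germ cell-like cells (PGCLCs) of the mouse. These are 5 of the 21853 protein-coding genes of GENCODE release M21 on 21 chromosomes. They were chosen by name, with earlier results of these data known, so their values below are a description with no test. The maps come from chromatin immunoprecipitation followed by sequencing (ChIP-seq) of untreated cells of strain 129Sv/J at day 2, with 2 samples for HA-Tex10, 2 for H3K4me3 and 2 of input DNA. All cells of the study carry the HA tag at the C-terminal end of Tex10, and the HA-Tex10 samples were precipitated with an antibody against that tag. The labels do not say whether the tagged line is a single clone. PGCLCs are made in culture and are like the early cells of the embryo that give rise to sperm and eggs, and H3K4me3, trimethylated lysine 4 of histone H3, marks the start sites of active or poised genes.

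The deposited data used here are 1 list of genomic intervals for each antibody, with 4238 HA-Tex10 intervals (median width 232 bp) and 29002 H3K4me3 intervals (median width 711 bp) on the 21 chromosomes. The narrowest interval of either list was 1 bp. How the interval edges were set is not given, so widths and gaps below describe the listed intervals and not the extent of binding. The lists have no scores and no replicate values, so no difference below has a replicate error, and the sequencing depth is unknown. Where a gene has no interval, binding was not detectable at the depth and threshold of the lists, and it is not shown to be absent. As a check of the cell label, H3K4me3 lay within 1 kb of a transcription start site (TSS) at 8 of 10 germ cell and pluripotency markers. The germ cell markers Dppa3 and Nanos3 lacked it. It lay at 0 of 9 markers of other cell types, and at 60.9% of all coding genes. A further planned marker, Hbb-b1, was not scored. The first list mixes germ cell and pluripotency markers, so its count does not tell PGCLCs from pluripotent cells.

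The nucleolus is the nuclear compartment where ribosomal RNA is transcribed, modified and joined to ribosomal proteins. Fibrillarin (Fbl) is the methyltransferase of the box C/D small nucleolar ribonucleoproteins (snoRNPs), in which small nucleolar RNAs (snoRNAs) guide 2′-O-methylation of ribosomal RNA, and Nop56 and Nop58 are the paired scaffold proteins of the same particles. Nucleolin (Ncl) binds ribosomal RNA precursors, and nucleophosmin (Npm1) is a chaperone of the outer, granular part of the nucleolus. Tex10 is itself a nucleolar and nuclear protein, known from a complex that processes the precursor of the large ribosomal subunit and also from work on pluripotency.

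Ncl, Npm1 and Nop56 had HA-Tex10 at most 1 kb from a coding TSS, and Nop58 and Fbl had none. This is 3 of 5 genes, where 8.66% of all coding genes and 13.9% of those with H3K4me3 had such an interval. H3K4me3 lay within 1 kb of a coding TSS at 5 of 5, where 60.9% of all coding genes had it. Because the genes were chosen with their intervals known, these counts are not evidence that the group stands apart. The 3 intervals were 0, 67 and 133 bp from the nearest coding TSS of Npm1, Ncl and Nop56. The nearest interval to the Fbl TSS was 9.75 kb away and the nearest to the Nop58 TSS 203.0 kb away, so no gene was near the 1 kb limit on either side.

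The promoter sequences of Ncl and Nop56, which had an interval, and of Nop58, which did not, show which bases the HA-Tex10 list covered. Each runs 5′ to 3′ along the gene's own strand from 280 bp upstream to 19 bp downstream of the 5′-most coding TSS, on GRCm38 from the RefSeq assembly. Capitals mark the bases inside an HA-Tex10 interval. The windows are chr1:86359381-86359680 on the minus strand for Ncl, chr2:130274150-130274449 on the plus strand for Nop56 and chr1:59684697-59684996 on the plus strand for Nop58.
Ncl: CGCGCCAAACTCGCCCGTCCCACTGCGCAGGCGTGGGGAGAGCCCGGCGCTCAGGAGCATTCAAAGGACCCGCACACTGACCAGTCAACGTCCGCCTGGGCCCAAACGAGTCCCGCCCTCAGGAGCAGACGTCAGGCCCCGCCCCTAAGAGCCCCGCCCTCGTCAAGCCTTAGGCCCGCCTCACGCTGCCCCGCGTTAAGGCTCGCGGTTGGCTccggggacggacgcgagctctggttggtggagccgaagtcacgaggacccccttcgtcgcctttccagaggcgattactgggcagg
Nop56: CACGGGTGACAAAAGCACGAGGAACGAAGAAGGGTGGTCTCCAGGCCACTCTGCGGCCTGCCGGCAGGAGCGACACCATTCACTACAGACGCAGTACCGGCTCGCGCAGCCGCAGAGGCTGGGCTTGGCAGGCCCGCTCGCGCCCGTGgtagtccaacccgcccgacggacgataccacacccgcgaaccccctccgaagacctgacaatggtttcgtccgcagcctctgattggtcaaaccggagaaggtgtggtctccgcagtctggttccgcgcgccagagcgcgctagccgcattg
Nop58: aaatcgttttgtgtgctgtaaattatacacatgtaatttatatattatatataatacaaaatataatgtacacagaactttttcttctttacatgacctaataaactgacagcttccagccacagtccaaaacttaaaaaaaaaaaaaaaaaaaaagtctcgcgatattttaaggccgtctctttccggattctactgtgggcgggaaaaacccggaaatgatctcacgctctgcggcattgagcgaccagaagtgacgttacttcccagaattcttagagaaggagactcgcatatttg
In Ncl, 214 of the 300 bases lay inside the interval, and in Nop56 148 did. In the same window of Npm1 all 300 bases did, and in Fbl and Nop58 0 did. The promoters with an interval were the GC-rich ones of the 5. Their GC content was 68.7% for Ncl, 66% for Npm1 and 65.3% for Nop56, against 49% for Fbl and 36% for Nop58, and the median of all promoters with H3K4me3 was 59.3%. Nop58 stood at the 0.455th percentile of these promoters, with an A-rich stretch visible in its sequence. The count of CpG dinucleotides was also higher in the promoters with an interval, with 32 in Ncl and in Nop56 and 30 in Npm1, against 24 in Fbl and 12 in Nop58 (median of promoters with H3K4me3, 18).

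Across all genes with H3K4me3, GC content did not separate promoters with and without HA-Tex10 as it did among these 5. Of the 204 such promoters under 40% GC, the class of Nop58, 17.6% had HA-Tex10 (95% Wilson interval 13.03 to 23.5%). The share was 12.5% (11.1 to 13.99%) of the 1997 promoters between 40 and 50% GC, the class of Fbl, and 14.2% (13.3 to 15.3%) of the 4772 between 50 and 60%, which hold none of the 5 genes. It was 16.4% (15.3 to 17.5%) of the 4413 promoters between 60 and 70%, which hold Ncl, Npm1 and Nop56, and 8.75% (7.57 to 10.1%) of the 1920 promoters at 70% or more. These intervals cover counting error only.

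Short motifs were searched on both strands of the same 300 bp windows. The 9 searched were the CCAAT box (CCAAT), the GC box (GGGCGG), the E-box (CACGTG), a CRE core (TGACGT), an ETS core (CCGGAAG), the NRF1 motif, a YY1 core, the sequence TCTCGCGA and the TATA box (TATAAA). Ncl held 3 GC boxes, which began 168, 142 and 127 bp upstream of the TSS, and a CRE core that began 152 bp upstream. All of these lie inside its HA-Tex10 interval and read on the opposite strand. Npm1 held the YY1 core on the opposite strand, 233 bp upstream and inside the interval. Nop56 held a GC box 122 bp upstream and a CCAAT box 50 bp upstream, both on the opposite strand and between the interval and the TSS. Nop58 held a GC box, a CRE core, TCTCGCGA and, on the opposite strand, the TATA letters 244 bp upstream. Fbl held the ETS core on the opposite strand, 62 bp upstream. No match overlapped another. Among promoters with H3K4me3, the GC box was present in 61.5% (42.6% of all coding promoters), the CCAAT box in 39.3% (39.7%), the ETS core in 15.2% (10.2%) and the CRE core in 11.4% (8.63%). The TATA letters were present in 7.27% (13.2%), TCTCGCGA in 1.98% (1.31%) and the YY1 core in 0.594% (0.366%). HA-Tex10 lay within 1 kb of a TSS at 14.4% of the promoters with H3K4me3 and a GC box, against 13.9% of all with H3K4me3. The share was 15.4% with the CCAAT box, 18.5% with the ETS core and 17.5% with the CRE core. It was 12.3% with the TATA letters, 19.3% with TCTCGCGA and 21.5% with the YY1 core. These differences were not tested. A match says only that these letters occur. No motif was found in all 5 promoters, and the GC box was in 3 of 5, close to its share among promoters with H3K4me3.

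**Figure D1:**
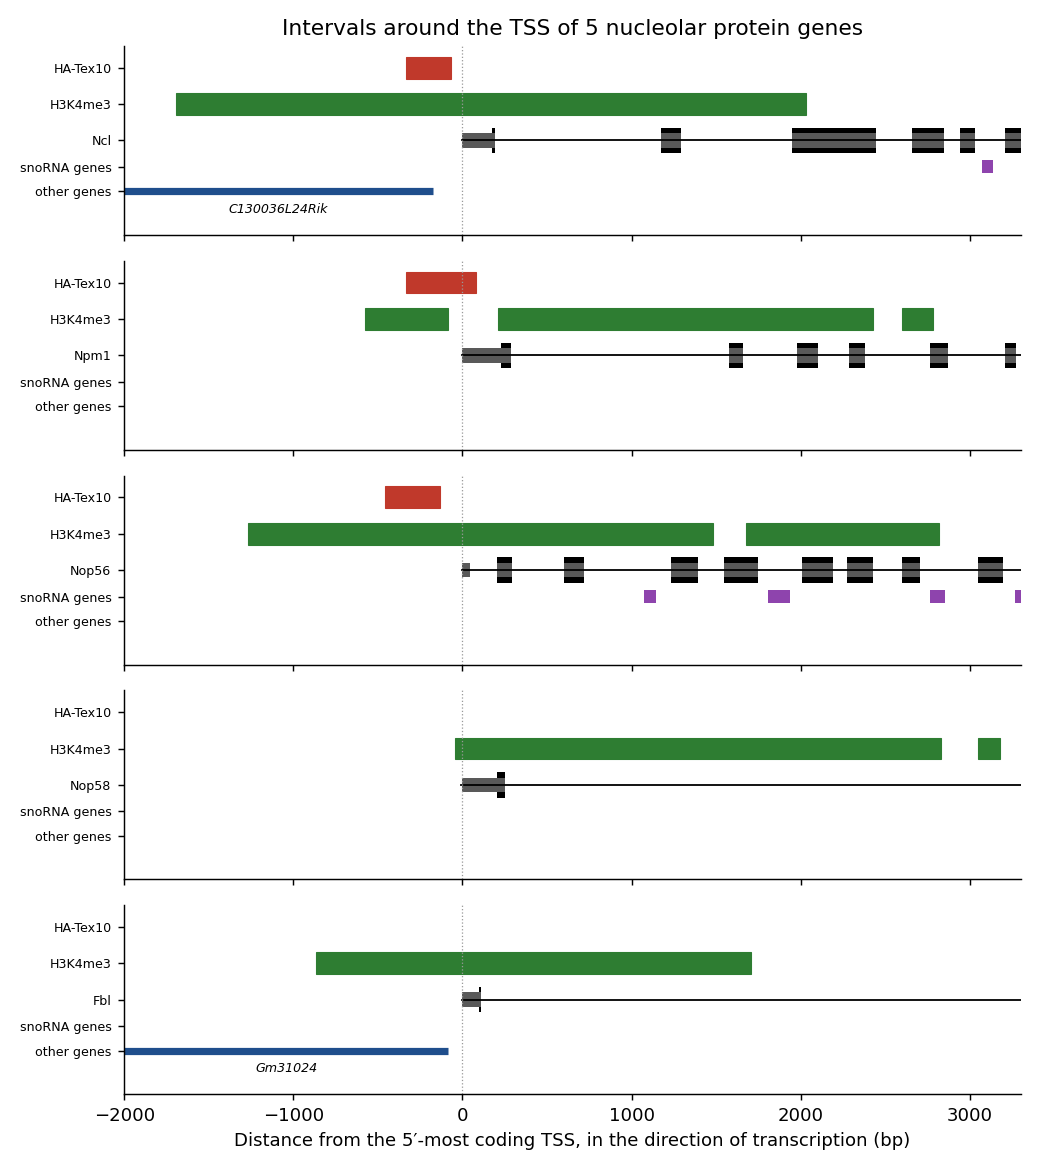
HA-Tex10 intervals (red), H3K4me3 intervals (green), exons (grey, coding parts taller and black), intronic snoRNA genes (purple) and other genes (blue) by distance in bp from the 5′-most coding TSS, with transcription to the right. HA-Tex10 lies upstream of the TSS in Ncl and Nop56, and over the TSS and a gap in H3K4me3 in Npm1. No HA-Tex10 interval was listed in the span shown for Nop58 and Fbl.

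Ncl (ENSMUSG00000026234.12) occupies 86344719 to 86359400 on chromosome 1, minus strand. Its HA-Tex10 interval, from 86359467 to 86359735, was 269 bp wide and covered 335 to 67 bp upstream of the TSS, outside the gene. On the other strand, the noncoding gene C130036L24Rik starts 174 bp upstream of Ncl, and the interval contained that start. It covered 162 bp of the first exon of transcript C130036L24Rik-201, so the interval lay at the start of both genes of a divergent pair. The surrounding H3K4me3 interval, from 86357371 to 86361095, was 3725 bp wide, the 97.7th percentile of the 12694 coding genes with H3K4me3 within 1 kb of their 5′-most TSS. It reached 1695 bp upstream and 2029 bp downstream, into exon 3, and held the whole HA-Tex10 interval.

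Npm1 (ENSMUSG00000057113.13) occupies 33152287 to 33163206 on chromosome 11, minus strand. Its promoter interval, from 33163124 to 33163542, was the widest of the 3 at 419 bp. It ran from 336 bp upstream to 82 bp downstream of the TSS, over the untranslated start of exon 1. H3K4me3 was split here into an interval of 488 bp upstream and one of 2220 bp in the gene, with a gap of 294 bp from 85 bp upstream to 208 bp downstream that contains the TSS. HA-Tex10 covered 168 bp of that gap, and 251 of its 419 bp (59.9%) overlapped the upstream H3K4me3 interval. A TSS in a gap between H3K4me3 intervals within 1 kb occurred at 571 coding genes, 4.29% of those with H3K4me3, with a median gap of 262 bp. Of these genes 107 had HA-Tex10 (18.7%, 95% Wilson interval 15.8 to 22.1%).

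A further HA-Tex10 interval lay 3556 bp past the 3′ end of Npm1, from 33148487 to 33148731 (245 bp). It falls between Npm1 and Fgf18, a growth factor gene, and 1087 bp upstream of the Fgf18 TSS, just outside the 1 kb window of that gene. Of its bases 10 overlapped an H3K4me3 interval of 232 bp, so it counted as overlapping only by the 1 bp rule. The Fgf18 TSS itself carried an H3K4me3 interval of 792 bp. In the gene body of Npm1, H3K4me3 ended with an interval of 186 bp over intron 4 and exon 5.

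Nop56 (ENSMUSG00000027405.16) lies on the plus strand of chromosome 2, from 130274430 to 130279313, and is the shortest of the 5 genes at 4884 bp. Its HA-Tex10 interval, from 130273972 to 130274297, was 326 bp wide and covered 458 to 133 bp upstream of the TSS. It was the farthest upstream of the 3 and, like that of Ncl, wholly inside H3K4me3. That H3K4me3 interval was 2749 bp wide (91.4th percentile) and reached 1266 bp upstream and 1482 bp downstream, into intron 4. After a gap of 196 bp, another H3K4me3 interval of 1137 bp ran from within exon 5 into intron 8. The next gene, Idh3b, which encodes a subunit of mitochondrial isocitrate dehydrogenase, is transcribed towards Nop56 and had H3K4me3 of 1437 bp at its TSS and no HA-Tex10.

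Nop58 (ENSMUSG00000026020.9) lies on the plus strand of chromosome 1, from 59684971 to 59719044, and is the longest of the 5 at 34074 bp. It had no HA-Tex10 interval in the gene or within 10 kb of it. Its H3K4me3 interval, from 59684936 to 59687806, was as wide as that of Nop56, at 2871 bp (92.7th percentile). It differed in shape, since it began 41 bp upstream of the TSS and reached 2829 bp downstream, within intron 1. In the 1 kb upstream of the TSS, 41 bp carried H3K4me3, against 1000 bp in Ncl and in Nop56, 866 bp in Fbl and 488 bp in Npm1 (median of genes with H3K4me3, 311 bp). A short H3K4me3 interval of 130 bp followed in intron 1.

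Fbl (ENSMUSG00000046865.7) lies on the plus strand of chromosome 7, from 28169710 to 28179269. Its H3K4me3 interval, from 28168844 to 28171415, was 2572 bp wide (89.2th percentile), reached 866 bp upstream, and also covered the TSS of Gm31024, a gene model of GENCODE's class TEC on the other strand that starts 83 bp upstream. No HA-Tex10 interval met it. The 1 HA-Tex10 interval in the region, from 28179514 to 28179839 (326 bp), lay 245 bp past the 3′ end of Fbl, at the start of Dyrk1b, a protein kinase gene transcribed in the same direction. It covered 45 to 370 bp downstream of the 5′-most Dyrk1b TSS, in exon 1 outside the coding sequence and in intron 1, and 273 of its bases overlapped the Dyrk1b H3K4me3 interval of 984 bp. By position this interval lies at the Dyrk1b promoter rather than at a TSS of Fbl.

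**Figure D2:**
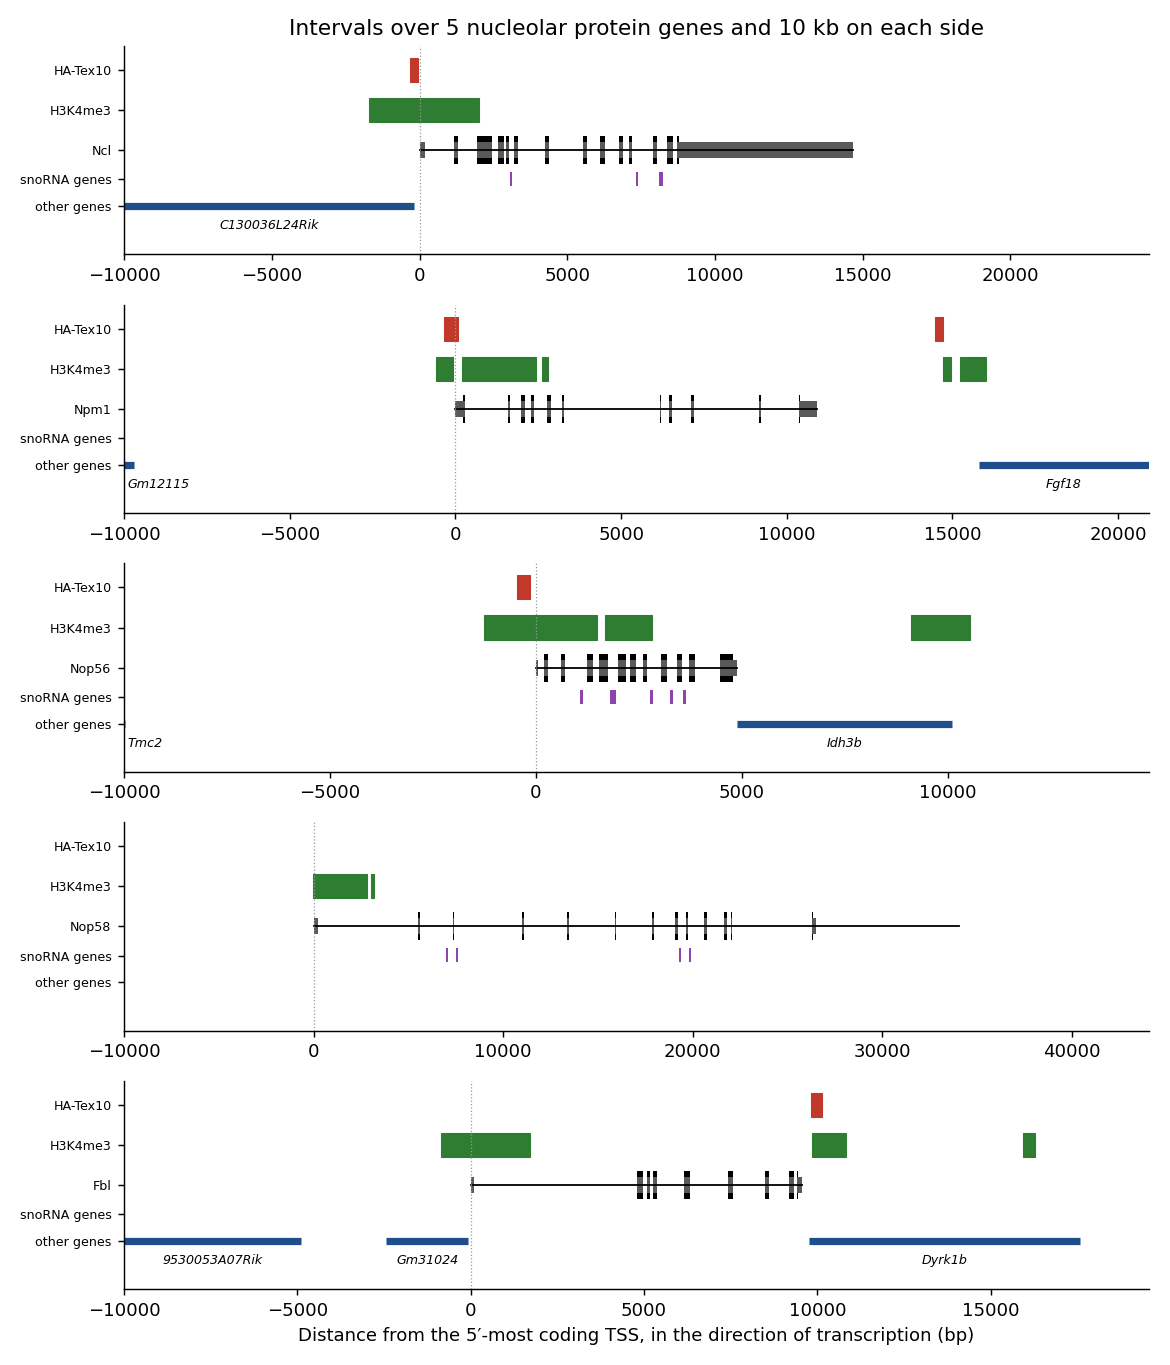
The same features over each whole gene and 10 kb on each side, by distance in bp from the 5′-most coding TSS. Of the 5 HA-Tex10 intervals, 3 lie at the members' own TSS, 1 lies past the 3′ end of Npm1 and 1 at the start of Dyrk1b beyond Fbl, and no snoRNA gene is met.

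With 10 kb on each side, the 5 genes thus held 5 HA-Tex10 intervals at 4 genes, where 16.9% of all coding genes had an interval in the same window. None lay wholly inside any of the 5 genes described here, and the Npm1 promoter interval was the 1 that overlapped its own member gene. All 5 overlapped H3K4me3 by at least 1 bp, which 69.3% of all HA-Tex10 intervals did, those away from a TSS included. Of the 1893 coding genes with HA-Tex10 within 1 kb of a TSS, 1856 also had H3K4me3 within 1 kb of one. The windows with 10 kb on each side held 14 H3K4me3 intervals, 7 of them within 1 kb of a coding TSS of the member. Each of the 5 genes had at least 1 in its window, where 70.7% of all coding genes did. Every 32-base word of the 5 HA-Tex10 intervals occurred once on the 21 chromosomes, on either strand, so these intervals can be placed uniquely. The H3K4me3 intervals held some words that recurred. In those nearest to the TSS the share was 7.40% in Nop56, 5.18% in Nop58 and 2.92% in Ncl. It was 0.905% in Fbl and 0% in Npm1, and 9.87% in the Npm1 interval of 2220 bp.

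The 3 promoter intervals had their centres 295.5 bp (Nop56), 201 bp (Ncl) and 127 bp (Npm1) upstream of the TSS. Among the 1748 coding genes with HA-Tex10 within 1 kb of the 5′-most coding TSS, 50.2% had the centre upstream, with a median of -1.25 bp and quartiles of -173 and 168.6 bp. Nop56 and Ncl thus lay farther upstream than the lower quartile, at percentiles 13.5 and 22.1 of position. Npm1 lay between the quartiles, at percentile 31.7. The interval contained the TSS at 37.5% of these genes, as in Npm1. The widths of 419 bp for Npm1, 326 bp for Nop56 and 269 bp for Ncl were all above the median at TSS of 243 bp.

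**Figure D3:**
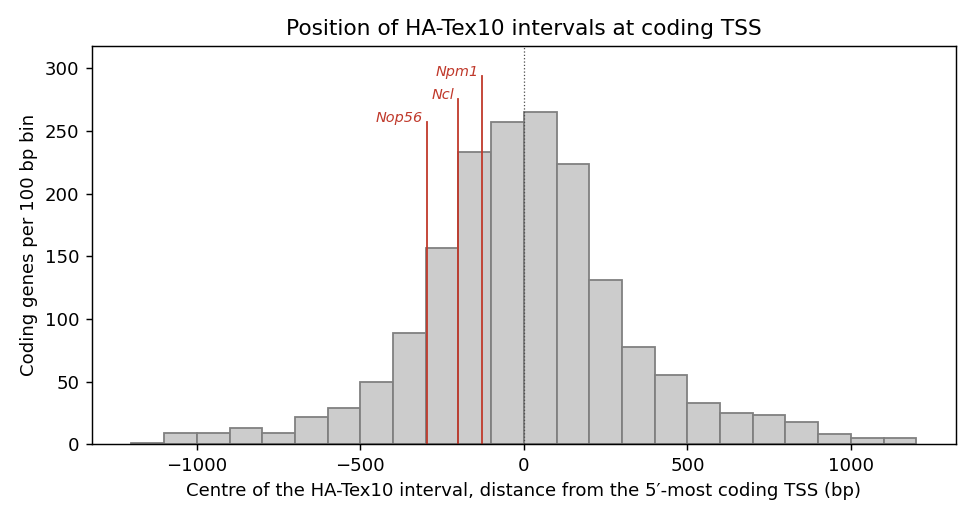
Number of coding genes (y axis, per 100 bp bin) by the centre of their HA-Tex10 interval relative to the 5′-most coding TSS in bp (x axis, negative is upstream), for 1748 genes. The red lines mark Nop56, Ncl and Npm1, whose centres lie 295.5, 201 and 127 bp upstream.

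Genes with H3K4me3 were then ordered by features that the 5 genes share or differ in. By the width of the nearest H3K4me3 interval, HA-Tex10 was present at 26.9% (95% Wilson interval 23.9 to 30.1%) of the 778 genes of 3000 bp or more, the class of Ncl. It was present at 23.8% (20.9 to 27.1%) of the 738 genes between 2500 and 2999 bp, which hold Nop56, Nop58 and Fbl. Most genes with H3K4me3 as wide as theirs therefore lacked HA-Tex10, as Nop58 and Fbl did. By the interval nearest to its TSS, Npm1 fell in the class under 500 bp, where 5.40% (4.35 to 6.69%) of 1444 genes had HA-Tex10. Counted as covered bases within 2500 bp of the TSS, Npm1 had 2708 bp of H3K4me3, the 88.9th percentile. The other genes had 3725 bp (Ncl), 3571 bp (Nop56), 2572 bp (Fbl) and 2542 bp (Nop58), and the median of genes with H3K4me3 was 1401.5 bp.

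By the reach of H3K4me3 upstream of the TSS, HA-Tex10 was present at 25.2% (23.3 to 27.3%) of the 1813 genes with 1000 bp or more, the class of Ncl and Nop56. The share was 17.5% (16.0 to 18.9%) of 2636 genes with at least 500 and under 1000 bp, the class of Npm1 and Fbl, and 11.8% (10.4 to 13.4%) of 1711 genes with 0 to 99 bp, the class of Nop58. Among genes at least 2000 bp wide, 15 of 79 with a reach of 0 to 99 bp (18.99%, 11.9 to 29.0%) had HA-Tex10, and 550 of 2284 with a reach of 500 bp or more (24.1%, 22.4 to 25.9%). The 2 Wilson intervals overlap, and the difference was not tested.

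**Figure D4:**
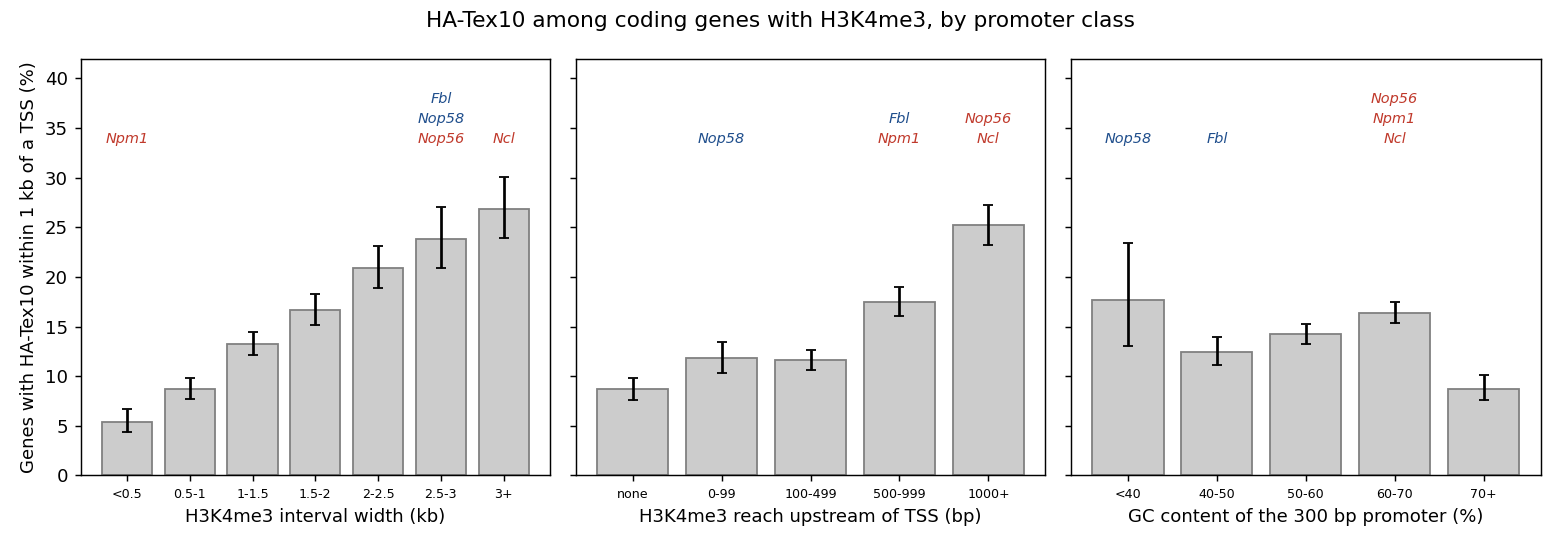
Share with HA-Tex10 within 1 kb of a TSS (y axis, percent) among coding genes with H3K4me3. Classes are by width of the H3K4me3 interval in kb, its reach upstream of the TSS in bp and GC content of the 300 bp promoter in percent. Width and reach are for the 12694 genes with H3K4me3 within 1 kb of the 5′-most coding TSS. GC content is for the 13306 genes with it within 1 kb of any coding TSS. Bars are shares with 95% Wilson intervals, and the names give the class of each gene, in red with HA-Tex10 and in blue without. The share rises from 5.40% to 26.9% with width and from 8.69% to 25.2% with reach, and has no single direction with GC content.

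Introns of 3 of the genes carry snoRNA genes. GENCODE lists 12, with 5 in Nop56, 4 in Nop58, 3 in Ncl and 0 in Npm1 and Fbl. Of the 252 coding genes with an intronic snoRNA gene, 4 hold 5 or more, and Nop56 is one of them. In Ncl they are Snord82, Gm24148 and Snora75 in introns 5, 11 and 12. In Nop56 they are Snord110, Gm24451, Gm23187, Gm23650 and Snord57 in introns 3, 5, 8, 9 and 10, and in Nop58 they are Snord70, Gm26293, Gm26287 and Snord11 in introns 2, 3, 8 and 9.

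Box C/D snoRNAs, the RNAs of the particles that contain Nop56, Nop58 and fibrillarin, have 2 short sequences, the C box near the 5′ end and the D box near the 3′ end. The letters TGATGA starting in the first 20 bases and CTGA in the last 20 bases were searched, on the strand of the gene. Of the 12, 5 held both, where 310 of 1507 annotated snoRNA genes (20.6%) did. Those 1507 are of all classes and not of box C/D alone. Snora75 and Gm24451, each 133 bp long, held neither. The other 7 include variants of these letters, and none of the 12 is called functional or not from this search. The 5 are shown with both boxes in capitals, as the RNAs from introns of these genes in which the letters of both boxes were found. They were read from GRCm38 at chr1:86356261-86356330 (minus strand), chr1:86352008-86352087 (minus), chr2:130275506-130275573 (plus), chr1:59704258-59704338 (plus) and chr1:59704790-59704873 (plus).
Snord82: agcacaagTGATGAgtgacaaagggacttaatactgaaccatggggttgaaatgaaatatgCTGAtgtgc
Gm24148: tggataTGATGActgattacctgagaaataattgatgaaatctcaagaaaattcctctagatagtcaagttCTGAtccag
Snord110: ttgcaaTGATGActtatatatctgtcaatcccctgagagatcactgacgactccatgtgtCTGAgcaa
Gm26287: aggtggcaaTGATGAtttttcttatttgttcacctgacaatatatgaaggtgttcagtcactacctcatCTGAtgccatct
Snord11: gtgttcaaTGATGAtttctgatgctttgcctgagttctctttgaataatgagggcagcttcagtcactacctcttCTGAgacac
RefSeq also annotates a microRNA, mmu-miR-3535, at chr1:86352062-86352087 (minus strand), and its first base is the first base of Gm24148. The mature sequence of 26 bases is shown with its seed, bases 2 to 8, in capitals.
mmu-miR-3535: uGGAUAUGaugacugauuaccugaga

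None of the 12 snoRNA genes was overlapped by HA-Tex10. In introns of other coding genes, 9 of 323 were (2.79%), and the count of 0 of 12 allows a share of up to 25%. The HA-Tex10 interval nearest to Snord110 was 1209 bp away, and those nearest to the other snoRNA genes of Nop56 and Ncl were 1940 to 8166 bp away. H3K4me3 overlapped 3 of the 12, where 22% of the snoRNA genes of other coding genes were overlapped. All 3 lie in Nop56: Snord110 and Gm24451 were covered whole, and Gm23187 in 51 of its 86 bp. The 2 H3K4me3 intervals of Nop56 thus reached the first of its snoRNA genes, while the first in Ncl (Snord82) began 1041 bp past the end of H3K4me3 and the first in Nop58 (Snord70) 3781 bp past it. As host genes, Ncl and Nop56 had HA-Tex10 at the TSS and Nop58 did not. Among the other 249 host genes, 49 had HA-Tex10 within 1 kb of a TSS (19.7%) and 213 had H3K4me3 (85.5%).

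A list of 27 related genes places the 5 among their partners. Of these, 8 had HA-Tex10 within 1 kb of a TSS (29.6%, 95% Wilson interval 15.9 to 48.5%), to be read against 8.66% of all coding genes and 13.9% of those with H3K4me3, and 26 had H3K4me3. With intervals wider than the median alone, 4 of the 27 had one. The list was written with earlier results of these data known, and its share was not tested. Among the 4 core proteins of the box C/D particle, Nop56, Nop58, Fbl and Snu13, H3K4me3 was present at 4 genes and HA-Tex10 at 1, Nop56. Each related gene was put in a single group, which does not show that an assembly factor serves that particle alone. In the list of 9 genes for the box C/D particle and its assembly, 5 had HA-Tex10 (55.6%, 95% Wilson interval 26.7 to 81.1%). These were Rrp9, a protein of the U3 particle, Nufip1, an assembly factor, Ruvbl1 and Ruvbl2, the paired ATPases of the assembly machinery, and Nolc1, a snoRNP chaperone.

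In Rrp9 the interval spanned 106476790 to 106477116 on chromosome 9 (327 bp), with its centre 316 bp upstream of the TSS. In Ruvbl1 it spanned 88465052 to 88465417 on chromosome 6 (366 bp), with its centre 174.5 bp upstream, and in Ruvbl2 it spanned 45437940 to 45438201 on chromosome 7 (262 bp) with its centre 25.5 bp downstream. These 3 resemble the intervals of Ncl, Npm1 and Nop56 in width. The Nufip1 interval of 33 bp and the Nolc1 interval of 51 bp were far narrower than the median of 232 bp. Snu13, Znhit3, Znhit6 and Pih1d1 had H3K4me3 and no HA-Tex10.

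Of 6 genes for the box H/ACA particle, whose snoRNAs guide pseudouridylation, HA-Tex10 was present at 1, the assembly factor gene Naf1. Its interval of 219 bp lies on chromosome 8. Without that chromosome, the share of all coding genes with HA-Tex10 at a TSS fell from 8.66% to 7.60%. The genes of its 4 core proteins, Dkc1, Nhp2, Nop10 and Gar1, had H3K4me3 and no HA-Tex10. Of 12 other nucleolar genes, HA-Tex10 was present at 2 (16.7%, 4.70 to 44.8%), Nop16 (298 bp) and Nop53 (219 bp), both genes for ribosome assembly factors. These shares are to be read against 8.66% of all coding genes and 13.9% of those with H3K4me3. The Wilson intervals of these groups and of the box C/D list overlap, and no difference between them was tested. Npm3, a relative of Npm1, had H3K4me3 of 943 bp and no HA-Tex10, and Npm2, the oocyte nucleoplasmin gene, had neither. Width of H3K4me3 did not order the list either: Ubtf, which encodes an RNA polymerase I transcription factor, had the widest interval at 5126 bp and no HA-Tex10, while Ruvbl2 had 572 bp and carried it.

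**Figure D5:**
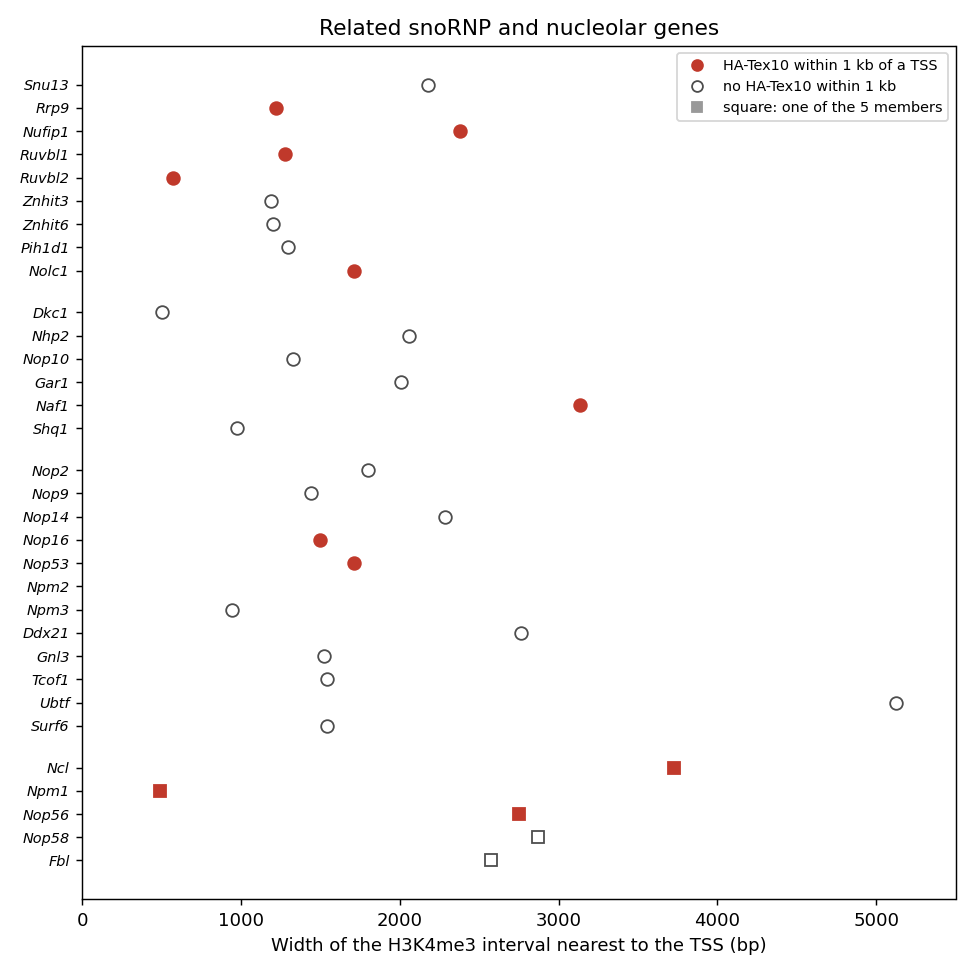
Width in bp (x axis) of the H3K4me3 interval nearest to the TSS of 27 related genes (circles, in 3 groups: box C/D, box H/ACA and other nucleolar genes) and of the 5 genes described here (squares). Filled red symbols have HA-Tex10 within 1 kb of a TSS (8 of 27 and 3 of 5), open symbols do not, and Npm2 has no symbol because it had no H3K4me3.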

How the data were processed

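ChIP-seq was done for HA-Tex10, H3K4me3 and input DNA. The submitters' processing notes name the mm10 build (GRCm38), Bowtie2 2.3.4.3, SAMtools 1.9, MACS2 2.1.2 and HOMER, without their roles. The authors deposited interval lists with starts and ends in bp. Their score and strand columns are empty, and whether intervals were called per replicate or on pooled reads is not given in the sources used here. The input samples were not analysed here. In the further HA-Tex10 list the intervals are those HA-Tex10 intervals that overlap H3K4me3, so it served only as an alternative.

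Starts were counted from 1. Starts of protein-coding transcripts in GENCODE M21 served as TSS (54327 in all), and the window was 1 kb from the edge of the interval. Overlap meant at least 1 bp. No interval ended past a chromosome end of GRCm38. Sequences came from the RefSeq assembly of GRCm38. The RefSeq promoter table held Ncl, Nop56 and Nop58, and its bases equalled the assembly's. Shares have 95% Wilson intervals, which cover counting error only and treat genes as independent. No test between samples was possible with 1 list per antibody. Alternatives changed the TSS window, distance rule, TSS set, interval width and list. Python 3.11.15, scipy 1.17.1 and pysam 0.24.0 were used, and the overlap search was tested on simulated data.

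The members and the lists were chosen with earlier results of these data known. The genes named are the 5 members, their intronic snoRNA genes, neighbours within 10 kb, the listed related genes and the cell type markers. Npm2, Npm3, Ubtf, the core box C/D and H/ACA genes and the other listed genes without HA-Tex10 were named after their values were seen.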

Additional observations from a re-analysis of the deposited data

How the results depend on the processing

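No paired analysis was possible because the lists, 1 per antibody, carry no replicate number, and for the same reason no replicate could be left out. Ncl, Npm1 and Nop56 were the members with HA-Tex10 at a TSS under each of the 6 alternatives tried on that count. Most of this followed from the distances, widths and H3K4me3 overlaps given above, so it adds little support. H3K4me3 was at 5 members in 4 alternatives and at 4, without Nop58, when distance was taken from the interval's centre. HA-Tex10 intervals overlapping H3K4me3 went from 5 to 4 when at least 50% of the interval had to lie inside, which leaves out the one near Fgf18. The members with HA-Tex10 in the body plus 10 kb fell from 4 to 1 (Npm1) in the gene body alone. The related genes with HA-Tex10 fell from 8 to 4 with intervals wider than the median (Rrp9, Ruvbl1, Ruvbl2 and Nop16) and to 7 of 26 without chromosome 8.

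The share of all coding genes with HA-Tex10 at a TSS, 8.66%, was 9.51% within 2.5 kb, 6.98% within 200 bp, 4.67% with intervals wider than the median, 8.02% with the further list and 7.60% without chromosome 8. The share with H3K4me3, 60.9%, was 62.2% within 2.5 kb, 58.7% within 200 bp, 59.5% by the centre, 61.6% with the TSS of all transcripts and 49.8% with wider intervals. Leaving out chromosome 8 was chosen after seeing the data. The shares given above for host genes and by H3K4me3 width, reach and GC content include that chromosome. Unknown depth limits what a missing interval at Nop58 or Fbl shows.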

Other observations

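The HA-Tex10 intervals of these genes were spaced unevenly. The interval at Ncl lay 21.5 kb from the next HA-Tex10 interval and had 10 others within 500 kb. Those at the Npm1 promoter and past its 3′ end were each other's nearest neighbours, 14.4 kb apart, with 2 others each within 500 kb. The Nop56 interval lay 94.6 kb from the next, with 2 others within 500 kb, and the interval at the start of Dyrk1b beyond Fbl lay 193 kb from the next, with 5 others. The median distance over all HA-Tex10 intervals was 56.4 kb.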
